A study of Mus musculus with 18 samples.

Results

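The retina of the newborn mouse was compared between Plk3-KO animals and their WT littermates on 6 of the 18 arrays of the series, 3 arrays for each genotype, all labelled P0, the day of birth. Plk3 encodes polo-like kinase 3, a serine/threonine kinase of the family whose best-known member, Plk1, drives entry into mitosis. The 3 Plk3-KO arrays hold retinas of mice that lack functional Plk3 in every cell, and the 3 WT arrays hold retinas of littermates. Both carry the strain label C57Bl/6, since the knockout line was crossed to C57Bl/6 mice. The study adds that the line came partly from a Black Swiss background with a retinal degeneration allele of Pde6b, which was bred out. No animal was treated. The other 12 arrays, 6 at P7 and 6 in the adult, were used only to set the newborn values beside later ages. Total RNA of isolated retinas was hybridised to Affymetrix whole-genome mouse arrays, and each value is the authors' MAS5 signal of a probe set on the log2 scale, on which a difference of 1 is a 2-fold difference. A table legend of the study describes as many retinas as arrays for each genotype, but the sources used here do not say whether the arrays stand for separate animals or from which litters, so the p-values measure only the spread between these samples.

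At birth the mouse retina still contains dividing progenitors. Ganglion cells, horizontal cells, cones and most amacrine cells have been born by then, while rods, bipolar cells and Müller glia are being made or are still to come. Progenitors keep dividing under Notch signalling, whose targets Hes1 and Hes5 repress neurogenic bHLH factors such as Atoh7 (Math5) and Neurog2. A cell that leaves the cycle turns on cell cycle inhibitors and then the genes of its neuron type.

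The arrays carried the markers of such a tissue. All of the progenitor genes Rax, Six3, Six6, Lhx2, Sox2 and Pax6 lay at 10.6 or above on each P0 array. The newborn neuron genes Stmn2 and Gap43 lay at 11.6 or above, and the photoreceptor precursor genes Otx2, Crx and Nrl at 11.6 or above. The red blood cell gene Hba-a1 lay at 5.3 or below. Markers of tissues next to the retina were in part present. In the pigment epithelium list Rpe65 lay at 3.0 or below, but Dct ran from 8.6 to 10 and Pmel from 9.1 to 10.2, and 6 of 12 genes passed the minimum of 7. In the vascular list Pecam1 and Cdh5 lay at 6.4 or below, but Cldn5 ran from 7.6 to 8.7 and Kdr, which neural progenitors of the retina also express, from 11.6 to 12.2, and 6 of 14 genes passed. In whole tissue, fewer cells of a type and less RNA per cell cannot be told apart.

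On the 6 arrays the median of all probe sets ran from 6.8 to 7.1, the share above 7 from 47.3% to 50.3%, the actin 3′ minus 5′ difference from 1.0 to 1.3, and the correlation across probe sets between any pair of arrays from 0.941 to 0.970. The number of arrays limits the precision. The arrays differed most in lens RNA. Over 15 lens genes, mostly crystallins, the mean log2 value was 11.04, 12.37 and 6.63 on Plk3-KO arrays 1, 2 and 3, and in WT 8.39, 4.45 and 13.91 on arrays 1, 2 and 3. Cryaa, the alpha A crystallin, stood at 13.3, 13.9 and 7.5 in Plk3-KO and at 11.9, 4.8 and 14.6 in WT. The spread ran through both genotypes, so that lens RNA did not follow the genotype label. Plk3-KO array 3 and WT array 3 also lay away from their own group on some probe sets of chromosome 4, where Plk3 lies. On 1438462_x_at of Khdrbs1, an RNA-binding protein, Plk3-KO arrays 1, 2 and 3 stood at 9.1, 9.1 and 13.0 and the WT arrays at 12.7, 12.9 and 12.8. On 1417461_at of Cap1, an actin regulator, Plk3-KO stood at 11.4, 11.5 and 10.3 and WT at 8.4, 8.9 and 10.5. Plk3-KO array 3 thus lay close to the WT values on the former, and on the latter array 3 of each genotype lay between the rest of the groups. The Cap1 difference was 1.80 (SE 0.50, adjusted p = 0.993 in limma) and 2.80 without array 3 of both genotypes (adjusted p = 0.878 in limma). With 1 array left out it ran from 1.37 (without WT array 1) to 2.42 (without WT array 3). On its other probe set, 1417462_at, Cap1 stood at 9.7, 9.7 and 8.8 in Plk3-KO and at 6.6, 7.4 and 8.7 in WT, a difference of 1.83. On 1447833_x_at of Mfap2, a microfibril protein, Plk3-KO stood at 9.8, 9.5 and 7.9 and WT at 7.9, 7.7 and 9.9, so that array 3 of each genotype carried the level of the other genotype. On 1435129_at of Ptp4a2, a phosphatase, Plk3-KO stood at 11.6, 11.8 and 10.8 and WT at 10, 9.9 and 11.3. The other probe sets of Mfap2 and Ptp4a2 overlapped, at differences of −0.17 to 0.17. The probe sets named here were chosen after their values were seen, and on that of Khdrbs1 WT array 3 lay with its group. Other probe sets of chromosome 4 were named for their small p. That choice favours array 3 on the side of its label, so they cannot test the labels. On 1426102_at of Cyp2j13 Plk3-KO array 3 stood at 7.1 and WT array 3 at 4.5, and on 1456010_x_at of Hes5 at 11.5 and 10.9. On 1416494_at of Ndufs5 they stood at 10.8 and 11.1, each the value of its group nearest the other genotype. The genotype of the animals behind Plk3-KO array 3 and WT array 3 was not tested. It cannot be settled here, since the Plk3 probe set reads the 3′ end and not the deletion. The study reports that this 3′ signal is raised in the knockout. On it Plk3-KO array 3 stood at 7.5 and WT array 3 at 7.3. The labels are used as given, and each Plk3-KO minus WT value depends on them. Without both arrays limma called 0 probe sets (smallest adjusted p = 0.222), the progenitor median was 0.15 and the G2/M median −0.10, against 0.13 and −0.07 with all 6 arrays.

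**Figure D1:**
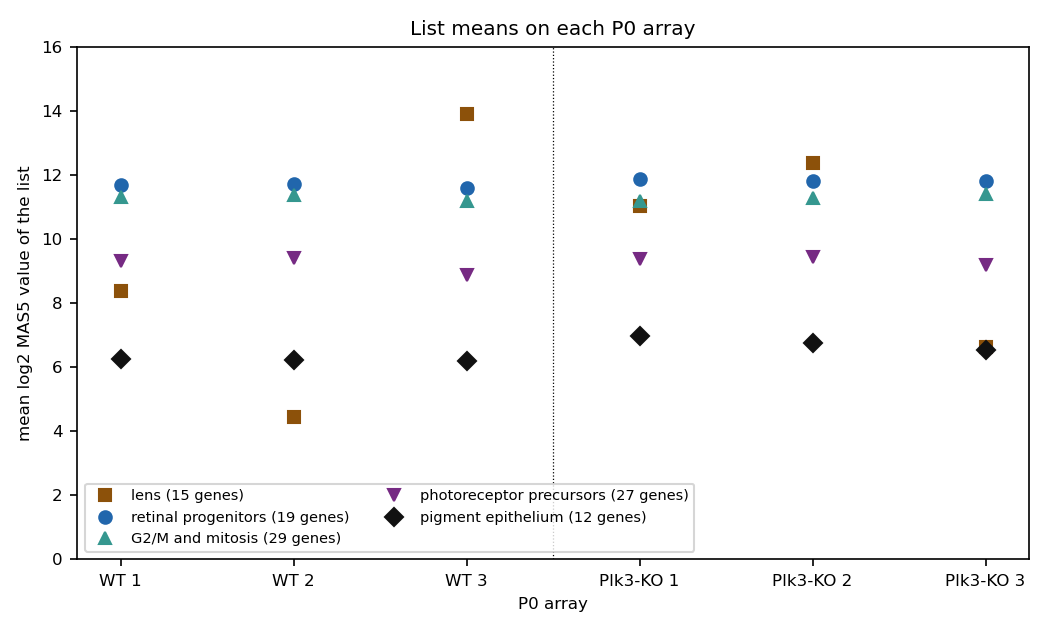
Mean log2 MAS5 value (vertical axis) of 5 gene lists on each of the 3 WT and 3 Plk3-KO arrays of P0 retina (horizontal axis). The lens mean runs from 4.45 to 13.91 without following genotype, while the means of progenitor and G2/M genes stay nearly level; levels of different lists are not comparable, since each probe set has its own scale.

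The first question was how many genes differed between the genotypes at birth. Of 22611 probe sets with a mean above 7 in either group, limma called 0 (0%) at an adjusted p under 0.05, and the smallest adjusted p was 0.993. At an unadjusted p under 0.05 it counted 392 probe sets (1.73%), 174 higher and 218 lower in Plk3-KO. If no probe set differed, about 1131 would be expected at that threshold. The methods' t-test, run on the same values, gave an unadjusted p under 0.05 for 503 (2.22%) and called 0 after Benjamini-Hochberg adjustment. In 394 probe sets (1.74%) the lowest Plk3-KO value exceeded the highest WT value, and in 395 (1.75%) the reverse held. Of the 20 possible splits of the 6 arrays, 1 gives either order, so these shares also lie below what no difference would give. The median difference over all tested probe sets was 0.00, and 95.6% of them differed by less than 0.5. A difference of at least 1 was reached upward by 65 probe sets and downward by 42. Leaving out Plk3-KO array 3 gave 1 call, Khdrbs1 on 1438462_x_at, at −3.70 (limma, adjusted p = 0.000398). With all 6 arrays, the other tested probe sets of Khdrbs1 differed by −0.10 to 0.43, with overlap in each. Leaving out WT array 1 gave 1 call as well, Pf4, the platelet chemokine, at 3.88 (limma, adjusted p = 0.0478). Its 3 Plk3-KO values of 9.8, 9.4 and 9.1 stood beside 10.1 on WT array 1 and 5.5 and 5.6 on the other WT arrays.

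How large a difference the arrays leave room for was read from the 95% confidence interval of each difference. The intervals are not adjusted for their number. The interval lay within ±1, a 2-fold difference in either direction, for 20357 probe sets (90%), and within ±0.5 for 6503 (28.8%). The median interval reached 0.47 to either side of the difference. The gene lists of this report held 332 genes on the array, of which 264 passed the minimum and were tested, each by its probe set with the highest mean. Limma called 0 of these 264. The interval lay within ±1 for 219 of them (83%), a smaller share than over all probe sets. In 12 list genes all Plk3-KO values exceeded all WT values, and in 0 the reverse held, where 1.74% and 1.75% of all tested probe sets did so. Among the 12, Plk3, Sesn2 and Pde6h passed the minimum through Plk3-KO alone, with WT means of 6.87, 6.03 and 6.13. The lists were also chosen with earlier results of these data known. The count of 12 against 0 is therefore no evidence of a one-sided shift, and it was not tested. Of the 12, 5 lie on chromosome 4 (Plk3, Hes5, Slc6a9, Sesn2 and Jun), as do 26 of the 264. Over all tested probe sets with a known chromosome, 6.30% lie on chromosome 4, and at an unadjusted p under 0.05 the share was 13.2% (41 of 311).

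**Figure D2:**
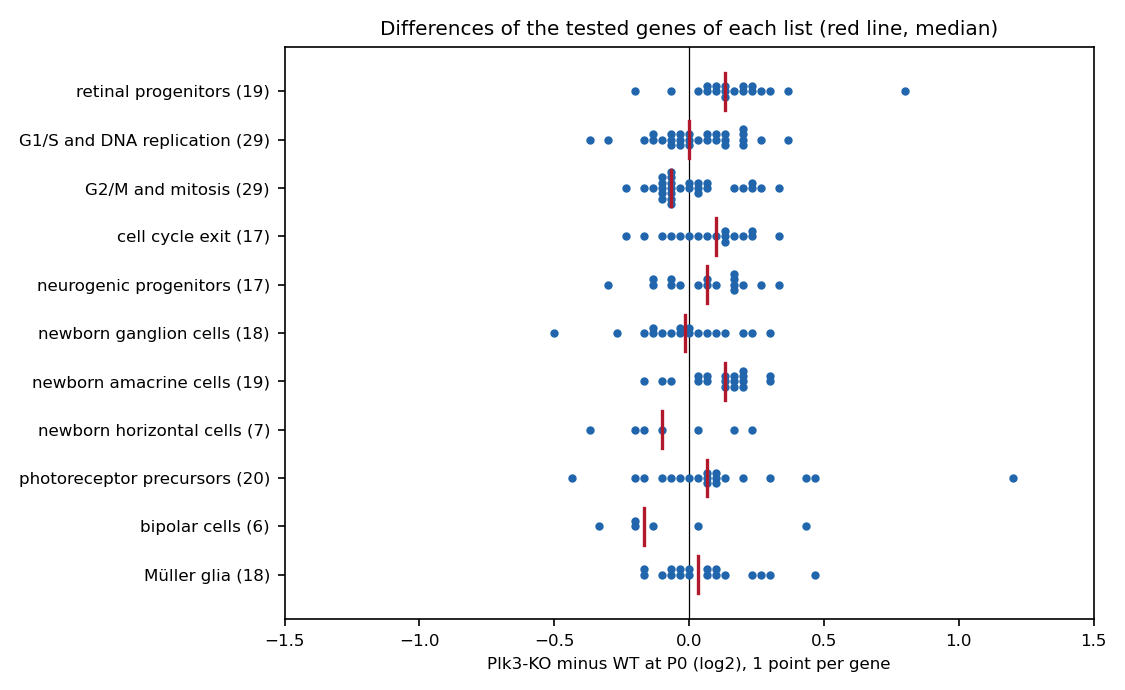
Plk3-KO minus WT difference at P0 (horizontal axis, log2) of each tested gene in 11 lists, with the number of genes in brackets and the list median as a red line. The medians lie between −0.17 and 0.13, and the points farthest out are Hes5 at 0.80 and Pde6h at 1.20.

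Plk3 itself was measured by 1434496_at, which reads the 3′ end of the mRNA and does not read the deletion. By qPCR the study found the 3′ end raised and the 5′ end reduced in the adult knockout. On 1434496_at Plk3 stood at 8.0, 8.2 and 7.5 in Plk3-KO and at 6.4, 6.9 and 7.3 in WT. The Plk3-KO arrays were all higher, with Plk3-KO array 3 and WT array 3 close together. The difference was 1.03 (SE 0.30, 95% interval 0.36 to 1.71), with an unadjusted p = 0.00698 and an adjusted p = 0.993 in limma. With 1 array left out it ran from 0.80 (without WT array 1) to 1.25 (without WT array 3). It was 1.45 without array 3 of both genotypes. An exact two-sided permutation test gave p = 0.1, the smallest that 3 arrays against 3 allow. The WT mean of 6.87 lies below the minimum of 7, so the size is not firm. Of 5 polo-like kinases on the array 4 were tested, and those other than Plk3 differed little. Plk1, the mitotic kinase, differed by 0.00 (interval −0.48 to 0.48) and Plk4, which drives centriole duplication, by −0.07 (−0.35 to 0.21). Plk2, known for its role at synapses, differed by −0.07 (−0.52 to 0.38). For each of these 3 kinases the unadjusted 95% interval of the probe set used stayed within ±1, a 2-fold difference in either direction. On 1426580_at and 1452115_a_at Plk4 differed by −0.17 and −0.30, with overlap.

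The progenitor list held 19 tested genes, and limma called 0 of them. Its median difference was 0.13, against 0.00 over all probe sets, with 17 genes above 0 and 2 below. The mean of the list was 11.87, 11.80 and 11.83 in Plk3-KO and 11.67, 11.71 and 11.59 in WT. The Plk3-KO arrays all lay above the WT arrays. Without Hes5 the means were 11.86, 11.82 and 11.84 against 11.71, 11.76 and 11.63, so the order did not rest on that gene. Sox2, the stem cell transcription factor, stood at 12.6, 12.7 and 12.7 in Plk3-KO and at 12.4, 12.6 and 12.4 in WT. Its difference of 0.20 (SE 0.13, interval −0.08 to 0.48) did not pass. Ccnd1, the cyclin D of retinal progenitors, stood at 14.3, 14.4 and 14.7 against 14.4, 14.4 and 14.2, a difference of 0.13 (−0.18 to 0.45). Pax6, the master regulator of eye development, differed by 0.07 (−0.20 to 0.34). Notch1, the receptor that maintains progenitors, differed by 0.10 (−0.22 to 0.42), and Fgf15, a growth factor of progenitors, by 0.23 (−0.14 to 0.61). The groups overlapped in each of these genes. For 18 of the 19 genes the interval stayed within ±1, the exception being Hes5.

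Hes5, the Notch target, lies on chromosome 4, as does Plk3. It was the 1 progenitor gene whose groups did not overlap (3.49% of all tested probe sets do not, in either direction). On 1456010_x_at it stood at 12.1, 11.5 and 11.5 in Plk3-KO and at 11, 10.8 and 10.9 in WT. The difference of 0.80 (SE 0.18, interval 0.39 to 1.21) had an unadjusted p = 0.0015 and an adjusted p = 0.993 in limma. With 1 array left out it ran from 0.60 (without Plk3-KO array 1) to 0.90 (without Plk3-KO array 2). It was 0.90 without array 3 of both genotypes. On its other probe set, 1423146_at, Hes5 stood at 10.6, 9.8 and 10.4 against 9.9, 10 and 9.8, and there the groups overlapped, with a difference of 0.37. Hes1, the related Notch target, differed by 0.37 (interval −0.10 to 0.83) and also overlapped. The neurogenic Notch ligands Dll1 and Dll3 differed by 0.07 and 0.17. Nrarp, another gene that Notch turns on, differed by 0.00 (−0.36 to 0.36).

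The 250 bases upstream of the Hes5 start are shown because Hes5 is a direct target of the Notch effector RBPJ and stands farthest from 0 in the progenitor list. They lie at chr4:154960673-154960922 on the plus strand of GRCm38.p6 (RefSeq), and capitals mark both matches to GTGGGAA, the core letters bound by RBPJ, 1 on each strand.
Hes5: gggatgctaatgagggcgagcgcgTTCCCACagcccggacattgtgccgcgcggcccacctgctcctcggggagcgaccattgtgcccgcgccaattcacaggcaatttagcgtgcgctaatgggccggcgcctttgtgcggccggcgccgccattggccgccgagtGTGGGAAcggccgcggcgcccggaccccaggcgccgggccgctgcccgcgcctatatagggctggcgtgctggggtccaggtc
A match to GTGGGAA on either strand lies in these 250 bases in 6.18% of 27025 genes, and more than 1 match in 0.196%. Among 13 progenitor genes with a promoter in the table, Hes5 was the 1 with a match. A match describes the letters and is not evidence of binding.

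**Figure D3:**
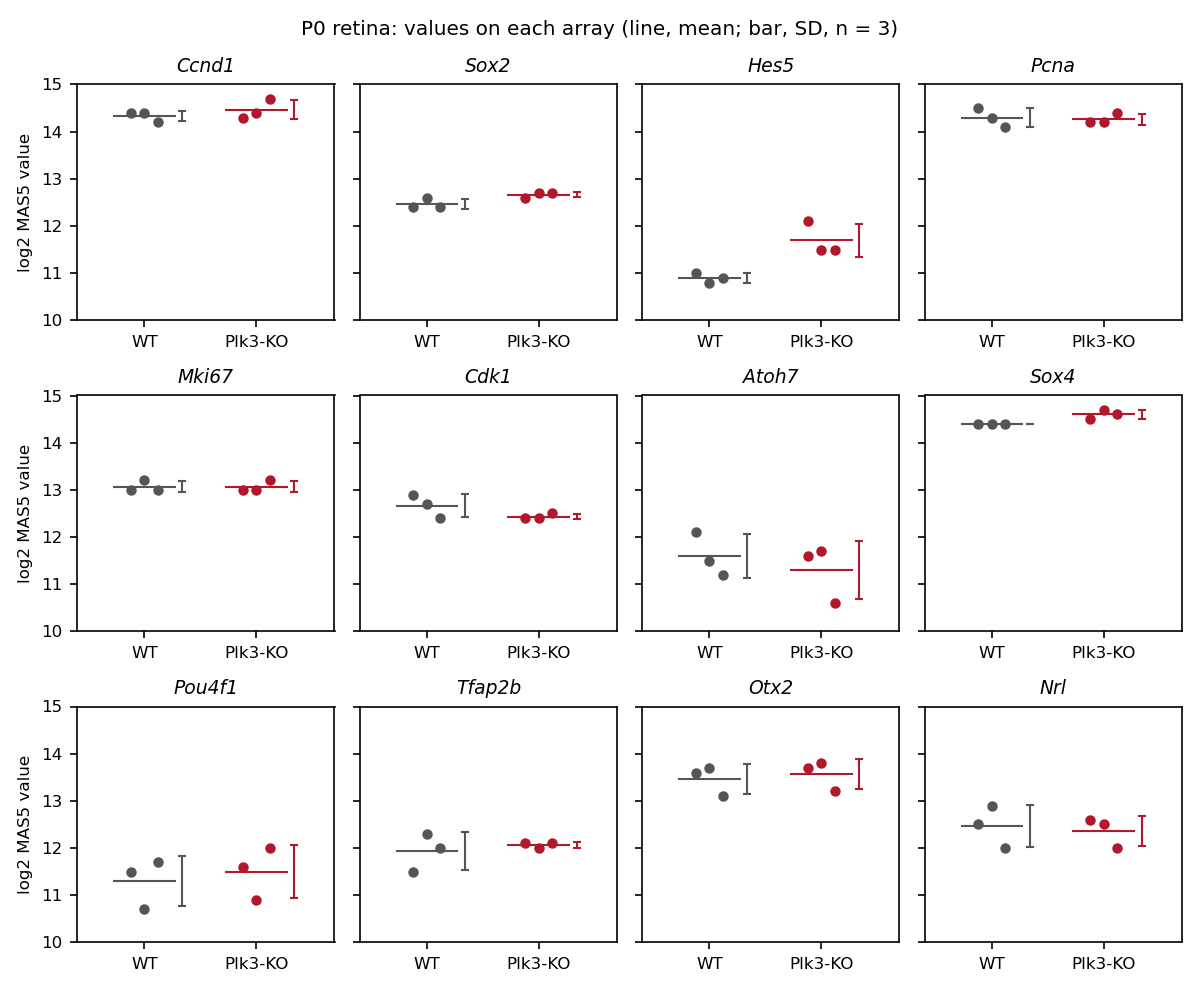
Log2 MAS5 values (vertical axis, from 10) on each WT (grey) and Plk3-KO (red) array for 12 genes of progenitors, dividing cells and newborn neurons, with the mean as a line and SD as a bar (n = 3). The groups overlap or touch in 10 of the panels and lie apart in Hes5 and Sox4; heights of different genes are not comparable.

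Genes of the cell cycle lay nearly level. Of 29 tested genes of G1/S and DNA replication, limma called 0 and the median difference was 0.00. Pcna, the sliding clamp of DNA polymerase, stood at 14.2, 14.2 and 14.4 in Plk3-KO and at 14.5, 14.3 and 14.1 in WT. Its difference was −0.03 (interval −0.35 to 0.28). The subunits of the MCM helicase, Mcm2 to Mcm7, differed by 0.07 to 0.20, with overlap in each. E2f1, the transcription factor that starts S phase, differed by 0.37 (−0.15 to 0.88) and Cdt1, the licensing factor, by 0.27 (−0.10 to 0.64). The interval left ±1 only for Pola1, a subunit of DNA polymerase alpha, at −0.37 (−1.27 to 0.54).

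Of 29 tested genes of G2/M and mitosis, limma called 0, the median difference was −0.07, and the interval lay within ±1 for all 29 and within ±0.5 for 20. The list mean was 11.20, 11.29 and 11.41 in Plk3-KO and 11.30, 11.38 and 11.20 in WT, with overlap. Mki67, the proliferation marker, stood at 13.0, 13.0 and 13.2 in Plk3-KO and at 13.0, 13.2 and 13.0 in WT, a difference of 0.00 (interval −0.29 to 0.29). Cdk1, the kinase of mitotic entry, stood at 12.4, 12.4 and 12.5 against 12.9, 12.7 and 12.4. Its difference of −0.23 (−0.57 to 0.11) was the lowest of the list. Top2a, the topoisomerase of dividing cells, and Ccnb2, a mitotic cyclin, each differed by −0.07. The highest difference was that of Ube2c, which targets mitotic cyclins for degradation, at 0.33 (−0.15 to 0.82). Cdc20, an activator of the anaphase-promoting complex that lies on chromosome 4, gave different values by probe set. On 1439394_x_at it stood at 8.9, 8.8 and 9.0 in Plk3-KO and at 8.0, 7.9 and 8.1 in WT, a difference of 0.90 with an adjusted p = 0.993 in limma. On 1439377_x_at and 1416664_at it differed by 0.17 and 0.13, and the groups overlapped.

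**Figure D4:**
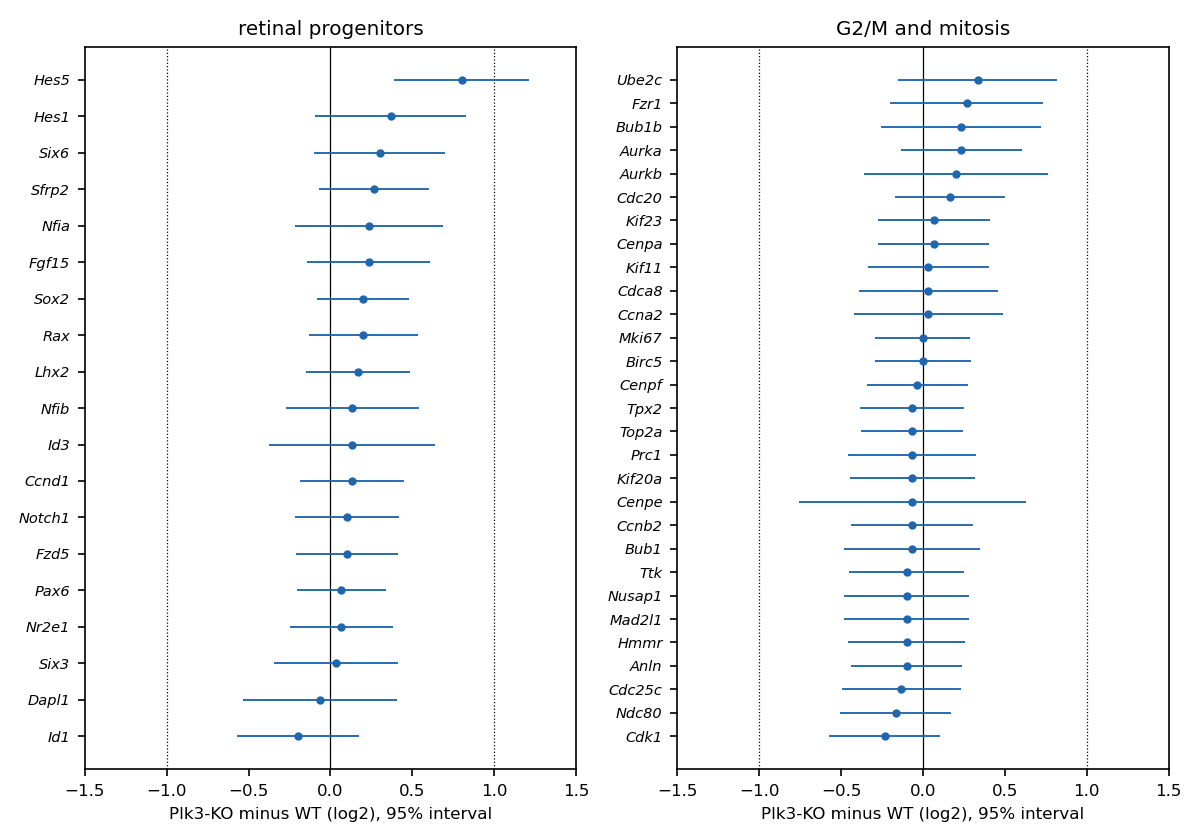
Plk3-KO minus WT difference at P0 with its 95% interval (horizontal axis, log2) for the 19 progenitor genes and the 29 G2/M genes, with dotted lines at −1 and 1. Each G2/M interval lies between the dotted lines, and among progenitor genes the interval of Hes5 alone passes 1 and leaves out 0.

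Of 17 genes of cell cycle exit limma called 0, with a median of 0.10. The Cdk inhibitors Cdkn1b (p27), Cdkn1c (p57) and Cdkn2c (p18) differed by 0.23, 0.00 and 0.17, and Cdkn1a (p21) by 0.33 (interval −0.23 to 0.90). Cdkn1c was highest, at 12.4, on WT array 3, which held the most lens RNA, and lowest, at 10.7, on WT array 2, which held the least. The interval of Ccnd2, cyclin D2, was the widest of the list (−1.07 to 1.47), with Plk3-KO array 3 at 8.0 and the other Plk3-KO arrays at 10.5 and 10.2.

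Among neurogenic progenitor genes, limma called 0 of 17, and the median was 0.07. All 17 intervals lay within ±1. Atoh7, which makes progenitors competent to form ganglion cells, stood at 11.6, 11.7 and 10.6 in Plk3-KO and at 12.1, 11.5 and 11.2 in WT. The lowest value was on Plk3-KO array 3, and the groups overlapped, with a difference of −0.30 (interval −0.99 to 0.39). Neurog2, a proneural factor, differed by −0.07 (−0.37 to 0.24) and Hes6, which marks cells committed to a neuronal fate, by −0.03 (−0.37 to 0.31). Foxn4, which biases progenitors to amacrine and horizontal fates, differed by 0.33 (−0.11 to 0.78). Sox4, a factor of newborn neurons, did not overlap on 1433575_at, at 14.5, 14.7 and 14.6 against 14.4 on each WT array. The difference was 0.20 (−0.06 to 0.46), and on 5 more Sox4 probe sets above the minimum it ran from 0.00 to 0.20 with overlap.

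The ganglion cell list held 18 tested genes, 0 of them called, with a median of −0.02 and each interval within ±1. Pou4f1 (Brn3a), a transcription factor of ganglion cells, stood at 11.6, 10.9 and 12 in Plk3-KO and at 11.5, 10.7 and 11.7 in WT, a difference of 0.20 (interval −0.50 to 0.90). Isl1, a further such factor, differed by −0.03 (−0.40 to 0.33). Sncg, the gamma synuclein of ganglion cells, stood at 11.3, 11.2 and 10.9 in Plk3-KO and at 12.1, 11.6 and 11.2 in WT. It was the gene of the list farthest from 0, at −0.50 (SE 0.22), with an unadjusted p = 0.0494 and an adjusted p = 0.993 in limma, and its groups overlapped. The axonal genes Nefl, Gap43 and Stmn2 differed by −0.13, −0.13 and −0.10. All 3 were lowest on array 3 of each genotype. Eomes, a factor of a ganglion cell subset, did not overlap on 1435172_at (0.23, interval −0.09 to 0.56), but on 1426001_at it differed by −0.03.

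Amacrine genes gave 0 calls among 19, with a median of 0.13 and 16 genes above 0. Tfap2b, the AP-2 beta factor of amacrine cells, stood at 12.1, 12 and 12.1 in Plk3-KO and at 11.5, 12.3 and 12 in WT. The low value on WT array 1 recurred in Tfap2a at 10.7 against 11.5 to 11.6 on the other 5 arrays. Ptf1a, which specifies amacrine and horizontal cells, differed by 0.07 (interval −0.24 to 0.37), and Gad1, the enzyme that makes GABA, by 0.17 (−0.32 to 0.65). Slc6a9, the glycine transporter, did not overlap on 1417636_at, at 9.7, 9.6 and 9.6 against 9.4, 9.5 and 9.1. Its difference was 0.30 (−0.07 to 0.67), and on 1431812_a_at it was −0.10. Tac1, which encodes the precursor of substance P, differed by 0.17 (−0.49 to 0.82) and Tfap2c by 0.20 (−0.60 to 1.00).

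Horizontal cell genes were few. Limma called 0 of 7, with a median of −0.10. Over the 8 genes on the array the mean was 8.04, 7.96 and 7.90 in Plk3-KO and 8.05, 8.11 and 8.13 in WT, so the Plk3-KO arrays all lay lower, the nearest pair by about the rounding. Calb1, the calcium-binding protein calbindin, stood at 7.5, 7.3 and 7.0 against 7.8, 7.6 and 7.5, a difference of −0.37 (interval −0.90 to 0.16). Lhx1, a horizontal cell factor, differed by 0.23 and Onecut1 by −0.20, with overlap in each.

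Among photoreceptor precursor genes, 20 were tested, 0 were called, and the median was 0.07. Otx2, which directs cells to the photoreceptor fate, stood at 13.7, 13.8 and 13.2 in Plk3-KO and at 13.6, 13.7 and 13.1 in WT. Nrl, the factor of rod fate, stood at 12.6, 12.5 and 12 against 12.5, 12.9 and 12. Both were lowest on array 3 of either genotype. Their differences were 0.10 (interval −0.36 to 0.56) and −0.10 (−0.63 to 0.43). Crx differed by 0.07 (−0.32 to 0.45) and Prdm1, which stabilises the photoreceptor fate, by 0.20 (−0.18 to 0.58). Later genes of phototransduction were less precise. Rcvrn, which encodes recoverin, stood at 8.7, 8.6 and 7.1 against 9.0, 9.2 and 7.5, and its interval ran from −1.58 to 0.71. Gngt1, the rod transducin gamma subunit, had an interval of −0.90 to 1.83. Pde6h, the inhibitory subunit of the cone phosphodiesterase, stood at 8.6, 6.7 and 6.7 against 6.1, 5.7 and 6.6, without overlap. Its difference of 1.20 had an unadjusted p = 0.0408 and an adjusted p = 0.993 in limma and was drawn by Plk3-KO array 1, and the WT mean lay below the minimum. Rp1 differed by −0.03, Casz1 by 0.10 and Rp1l1 by 0.03.

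Cell types that form mostly after birth gave few tested genes or small differences. Limma called 0 of 6 bipolar genes and 0 of 18 genes of Müller glia. Glul, the glutamine synthetase of Müller glia, did not overlap on 1426236_a_at, at 12.8, 12.8 and 12.7 in Plk3-KO and at 12.1, 12.2 and 12.6 in WT. The difference was 0.47 (SE 0.15), with an unadjusted p = 0.0133 and an adjusted p = 0.993 in limma, and on 1426235_a_at it was 0.33 with overlap. Vim, the intermediate filament of progenitors and glia, differed by −0.03 (interval −0.47 to 0.40), and Ttyh1 by 0.10 (−0.48 to 0.68). Vim and Ttyh1 were highest on WT array 3, at 13.0 and 11.3.

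Markers of other tissues that a dissected retina can carry were less even. All 6 tested pigment epithelium genes had a difference above 0, with a median of 0.40. The mean of the 12 genes on the array was 6.98, 6.75 and 6.53 in Plk3-KO and 6.26, 6.23 and 6.20 in WT, without overlap. Dct, an enzyme of melanin synthesis, stood at 10, 9.7 and 9.2 against 9.1, 9.1 and 8.6, a difference of 0.70 (interval 0.17 to 1.23), and Pmel, a protein of the melanosome matrix, differed by 0.57 (0.11 to 1.03). Limma called neither, at an adjusted p = 0.993. Rpe65, Best1 and Lrat, which define the mature pigment epithelium, stayed at 5.1 or below on each array. Microglial genes had a median of 0.28 over 10 tested genes and vascular genes 0.37 over 6, with 0 called in each and overlapping array means. The microglial median was 0.067 without WT array 3 and 0.53 without WT array 1. C1qa, a complement gene of microglia, differed by 0.50 (−0.12 to 1.12). The medians of these lists lay on the same side of 0 as that of the progenitor list, and their part in it was not tested. The lens list had a median of 1.33 over 14 genes, 0 of them called. It was −1.02 without WT array 2 and 3.77 without WT array 3, so its sign turned on 1 array, with Crybb2 at 9.9, 10.7 and 6.2 against 7.5, 1.8 and 12.4. With the lens mean of each array as a covariate, which was decided on with the values in view, limma called 0 probe sets for genotype and 395 reached an unadjusted p under 0.05. It called 48 for the lens mean.

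Genes that respond to stress were also compared. Of 8 tested p53 targets limma called 0, with a median of 0.07. Mdm2, the negative regulator of p53, differed by 0.13 (interval −0.25 to 0.52), and Bbc3, which encodes the death factor PUMA, by 0.07 (−0.56 to 0.69). Sesn2, a stress-induced regulator of mTOR signalling on chromosome 4, did not overlap on either probe set. On 1425139_at it stood at 6.8, 7.4 and 7.2 against 5.5, 6.2 and 6.4, a difference of 1.10, and on 1451599_at at 7.2, 6.7 and 7.3 against 4.8, 4.8 and 5.6, a difference of 2.0. The WT means lay below the minimum, so these sizes are not firm, and the adjusted p was 0.993 in limma for both. Of 8 immediate early genes limma called 0. Jun on 1448694_at and Ier2 did not overlap, at differences of 0.30 and 0.27. On 1417409_at Jun stood at 10.1, 9.9 and 10.2 against 8.8, 9.8 and 9.9, with overlap and a difference of 0.57, and Fos differed by 0.57 (−0.31 to 1.44).

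Outside the lists, the genes with the smallest p among those higher in Plk3-KO were led by Cnn3 and Cyp2j13. Cnn3 is an actin-binding calponin, and Cyp2j13 is a cytochrome P450 on chromosome 4. Cnn3 stood at 13.1, 13.2 and 13.2 in Plk3-KO and at 12.4, 12 and 11.7 in WT on 1456380_x_at, a difference of 1.13, while its other 5 probe sets above the minimum differed by 0.00 to 0.27. Cyp2j13 stood at 7.1, 7.0 and 7.1 against 5.1, 5.2 and 4.5, so it passed the minimum through Plk3-KO alone and the size is not firm. Among those lower, Ddx6, an RNA helicase, gave −0.90 on 1439122_at, and −0.20 and 0.13 on 1424598_at and 1434697_at. Ndufs5, a subunit of respiratory complex I on chromosome 4, stood at 9.9, 10.4 and 10.8 against 11.6, 11.5 and 11.1, a difference of −1.03. Med8, a Mediator subunit on chromosome 4, differed by −1.67 on 1442417_at and by 0.13 on 1431423_a_at. The former probe set passed the minimum through WT alone (Plk3-KO mean 5.47). None of these passed, and the adjusted p was 0.993 in limma for each.

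The week after birth gave a scale for these values. In WT retinas, from P0 to P7, limma called 4717 of 23411 probe sets (20.1%), 2503 higher (10.7%) and 2214 lower (9.46%) at P7. Of 29 G2/M genes 28 fell and 0 rose, with a median of −3.93, and of 29 G1/S genes 26 fell, with a median of −2.53. Mki67 fell by 4.13 (SE 0.49) and Cdk1 fell by 4.07 (SE 0.37), where their genotype differences at P0 were 0.00 and −0.23. Of 19 progenitor genes 14 fell, with a median of −1.77, and Hes5 fell by 3.43 (SE 0.71). Of 17 neurogenic genes 9 fell, Atoh7 by a difference of −4.30. Of 25 photoreceptor genes 17 rose, with a median of 2.40. The genotype and the age comparison share the P0 WT arrays, and their values are set side by side only for size.

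The promoter of Cdk1 is shown because the G2/M genes fell together after birth. Its 250 bases upstream of the start lie at chr10:69352913-69353162 on the minus strand of GRCm38.p6 (RefSeq). Capitals mark both matches to TTTGAA, the cell cycle homology region bound by DREAM and MuvB complexes, and the match to TTTCGCGC, an E2F motif; they do not overlap each other.
Cdk1: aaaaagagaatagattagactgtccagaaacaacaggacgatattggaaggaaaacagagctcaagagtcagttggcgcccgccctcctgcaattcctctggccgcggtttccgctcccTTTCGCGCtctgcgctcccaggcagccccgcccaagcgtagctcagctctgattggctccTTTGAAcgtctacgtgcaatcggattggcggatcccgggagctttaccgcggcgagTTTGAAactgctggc
On either strand, TTTGAA was found in 8 of 24 G2/M promoters (33.3%), in 3 of 24 G1/S promoters and in 18.3% of all 27025 genes. TTTCGCGC was found in 4 of 24 G1/S promoters, in 1 of 24 G2/M promoters and in 0.300% of all genes. These shares describe the letters, and no test was run on them.

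Whether the genotype difference at birth was unlike that of later ages was tested directly. Fitted over all 18 arrays, limma called 0 of 23878 probe sets (0%) for the difference at P0 minus that at P7, with 108 at an unadjusted p under 0.05, and 0 of 24775 (0%) for P0 minus the adult, with 457. Some named probe sets of chromosome 4 kept their sign from P0 to P7 to the adult. Cap1 on 1417461_at differed by 1.8, 1.8 and 1.27, and Plk3 by 1.03, 1.2 and 2.5. Ndufs5 differed by −1.03, −1.17 and −0.67, and Med8 on 1442417_at by −1.67, −1.83 and −2.1. Others changed sign, among them Jun on 1448694_at (0.30, −0.13 and −0.23) and Slc6a9 on 1417636_at (0.30, −0.17 and −0.40). These were chosen after their values were seen. On 1456010_x_at Hes5 differed by 0.80 at P0, by 0.17 at P7 and by −1.33 in the adult. Neither change passed, at 0.63 (SE 1.01, adjusted p = 1 in limma) for P0 minus P7 and 2.13 (SE 1.01, unadjusted p = 0.0507, adjusted p = 1 in limma) for P0 minus the adult.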

How the data were processed

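Retinal RNA of 6 P0 arrays (3 Plk3-KO, 3 WT) was analysed, and 12 arrays of P7 and adult retina entered the comparisons between ages. The values are the authors' deposited log2 MAS5 signals, with 1 decimal. MAS5, named in the submitters' processing notes and the methods, was run in Bioconductor's affy package. The sources used here give no version, and no normalization was added. Each array's group came from its title. After removal of 64 Affymetrix controls, 34945 probe sets had a single gene symbol, 932 had more and 9160 had no symbol. Names and chromosomes came from the platform annotation and the RefSeq gene table of GRCm38.p6.

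Probe sets with a mean above 7 in either group were tested with limma 3.58.1 in R 4.3.3 (lmFit, eBayes with trend) on the 6 arrays, with Benjamini-Hochberg adjustment and a threshold of 0.05. Differences between ages were contrasts in a fit over 18 arrays. The methods' t-test was run with pooled variance. A script tested the fit on simulated data. Values printed for a list are those of 1 probe set per gene, the one with the highest mean over the P0 arrays. Of 351 listed genes, 332 were on the array, and the rest are not analysed here.

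The members and the 22 lists were chosen with earlier results of these data known. Named were the genes that the study names for its postnatal arrays, most of them for the adult arrays and not for P0. Also named were the 3 highest WT genes of each list and genes without overlap. Further named were the 8 smallest p in each direction and the 5 smallest of each comparison between ages. Other genes were named after their values were seen. Alternatives were the 18-array fit, a replicate block, quantile normalization, median centring, other minimums, array weights, no trend, a mean over all probe sets of a gene and leaving out each array. Added after the values were seen were the lens mean as a covariate and leaving out Plk3-KO array 3 with WT array 3.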

Additional observations from a re-analysis of the deposited data

How the results depend on the processing

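The count of genotype calls stayed at 0 in limma with all 18 arrays, after quantile normalization, with arrays centred on their median, with no minimum, with a mean above 8, with array weights, without the trend and with both steps added after the values were seen. The smallest adjusted p among these was 0.139, without the trend. Leaving out 1 array gave 0 to 1 calls, with 1 without Plk3-KO array 3 (Khdrbs1) and 1 without WT array 1 (Pf4). The methods' t-test count of 503 was 1332 with no minimum and 488 to 1100 with 1 array left out, the highest without Plk3-KO array 2 and 1017 without WT array 3. It was 0 after adjustment in the main setting. Deviations of arrays with equal replicate number correlated at 0.196, −0.082 and 0.081. With 3 arrays per group these values cannot settle whether the replicate numbers pair the arrays. With the replicate number as a block limma called 0 probe sets (smallest adjusted p = 0.964).

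Of list medians, that of horizontal cell genes was −0.033 with a mean above 8 and −0.15 to 0.083 with 1 array left out. That of G2/M genes was −0.067 to 0.033, of progenitor genes 0.12 to 0.18 and of neurogenic genes 0.017 to 0.15 with 1 array left out, so the sign of the G2/M median turned without Plk3-KO array 1 and that of the horizontal median without Plk3-KO array 2. Medians of ganglion (−0.033 to 0.042), photoreceptor (−0.083 to 0.20), bipolar (−0.26 to 0.033), astrocyte (−0.26 to 0.11), G1/S (−0.017 to 0.067), polo-like kinase (−0.067 to 0.042), p53 target (−0.0083 to 0.16), connective tissue (−0.27 to 0.85) and lens genes (−1.02 to 3.77) also lay on both sides of 0, and microglial genes ran from 0.067 to 0.53. The number of list genes with an interval within ±1 was 166 in the 18-array fit and 197 to 206 with 1 array left out, against 219. The difference between ages called 0 probe sets in each alternative run.

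The depth of these arrays is their signal, and most genes of bipolar, vascular and pigment cells lay near or below the minimum of 7, where MAS5 values spread widely. Without a mean above 7 a gene has no test here.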
